A study of Homo sapiens and Mus musculus with 12 samples.

Results

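Of the 3461 GFI1 peaks called in THP1 cells, 931 (26.9%, 95% interval 25.4 to 28.4) lay between genes. These intergenic peaks were the ones whose summit, the base with the highest signal, was over 1000 bp from every start of a transcript of a protein-coding gene and outside the body of every gene of any type in GENCODE release 44 (GRCh38). Another 1547 peaks (44.7%) had their summit in a gene body and 983 (28.4%) within 1000 bp of a protein-coding start, and these are called genic and promoter peaks here. GFI1 was immunoprecipitated from THP1 cells, a human monocytic leukemia line, after fixation with DSG and formaldehyde with 5 μg antibody. The other peak lists came from SPI1 in THP1 cells (1846 peaks) and from K562 cells, a human leukemia line made to express Cas9. K562 cells with the non-targeting guide sg-NT gave an LSD1 list (6548 peaks) and a GFI1 list (498 peaks), and K562 cells with the LSD1-directed guide sg-LSD1 gave a GFI1 list (160 peaks). Every list stood for 1 library without a replicate. No p-value was therefore computed, and the 95% intervals cover counting error only.

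GFI1 is a zinc-finger repressor of blood cell development that binds DNA at sites with the core AATC and recruits the histone demethylase LSD1 through its SNAG domain. SPI1 (PU.1) is an ETS factor that opens and activates regulatory elements of myeloid cells at sites with the core GGAA, and GFI1 opposes it at part of these elements. Peaks far from genes usually mark distal elements such as enhancers, whose target gene is not always the nearest, so a gene named here only says which protein-coding start was closest.

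The 50 bp around the summit are given for selected members, on the plus strand of GRCh38. Capitals mark AATC on either strand, where GATT is the same core read from the other strand. The first set comes from strong members and from members near genes of monocytes, neutrophils and GFI1 itself. AATC was absent from 428 of the 931 summits (46.0%), and RIN3 and ZEB2 stand for these.
SPRED1, chr15:38130871-38130920: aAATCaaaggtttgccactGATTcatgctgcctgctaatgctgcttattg
HLX, chr1:221099108-221099157: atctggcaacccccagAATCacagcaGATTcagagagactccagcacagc
RIN3, chr14:92507498-92507547: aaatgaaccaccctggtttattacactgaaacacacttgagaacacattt
SUN1, chr7:812945-812994: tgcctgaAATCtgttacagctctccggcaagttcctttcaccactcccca
MEF2A, chr15:99510825-99510874: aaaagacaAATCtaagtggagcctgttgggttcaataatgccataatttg
ZEB2, chr2:145411632-145411681: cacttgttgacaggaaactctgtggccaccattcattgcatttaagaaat
LYZ, chr12:69338224-69338273: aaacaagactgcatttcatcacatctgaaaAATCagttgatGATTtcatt
MPO, chr17:58281933-58281982: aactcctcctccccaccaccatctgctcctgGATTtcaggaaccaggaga
GFI1, chr1:92460172-92460221: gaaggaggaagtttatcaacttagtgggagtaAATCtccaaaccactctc
GFI1, chr1:92458390-92458439: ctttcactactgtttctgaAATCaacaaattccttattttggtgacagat

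The second set shows members whose summits held a core of another factor or that recurred in K562 cells. Here capitals mark AATC and also GAGGAA (SPI1), TGTGGTT (RUNX) and GATAAG, the core bound by factors such as GATA1, on either strand. The members near CEBPE and HNMT were picked out after their values had been seen.
CD14, chr5:140612109-140612158: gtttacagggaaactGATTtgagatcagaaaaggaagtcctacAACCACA
KCTD6, chr3:58471510-58471559: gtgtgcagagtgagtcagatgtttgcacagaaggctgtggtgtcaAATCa
CEBPE, chr14:23112917-23112966: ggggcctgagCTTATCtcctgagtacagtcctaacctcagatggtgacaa
HNMT, chr2:138028681-138028730: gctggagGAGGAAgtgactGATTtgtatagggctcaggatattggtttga
DHX40, chr17:59561297-59561346: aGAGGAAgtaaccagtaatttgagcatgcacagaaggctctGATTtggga

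Intergenic GFI1 peaks spanned a wide range of enrichment, with a median close to that of the other classes. Their median −log10 p, the peak caller's measure of enrichment over the local background, was 11.7 (95% interval 11.4 to 12.49) and ran from 5.07 to 103. The median was 11.9 in genic and 11.3 (10.6 to 11.4) in promoter peaks. The median fold over background was 7.41 and ran from 2.66 to 40.4. Members made up 29 of the 100 strongest GFI1 peaks and 149 of the strongest 500 (29.8%, 25.96 to 34.0). Fold and −log10 p together gave the number of fragments stacked over each summit, with a median of 12 and a range of 6 to 92.

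The strongest member by −log10 p lay 122 kb upstream of SPRED1, an inhibitor of RAS signalling, with a fold of 37.2 and 68 fragments (−log10 p 103). The largest fold, 40.4, belonged to the member 218 kb downstream of HLX, a homeobox factor of blood cells, with 59 fragments (−log10 p 101). Both summits held the core AATC in 2 copies, and neither site was a peak in any of the other 4 lists. The words of 24 bases at the HLX summit had a median of 12 exact copies in the genome, whereas the SPRED1 summit was unique.

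The next strongest members lay near RIN3 (fold 32.9), ATP6V1G2 (32.2), SUN1 (29.1), MEF2A (28.1), COX4I1 (24.1), C6orf118 (27.2) and HLA-E (27.6). MEF2A is a MADS-box transcription factor and HLA-E a non-classical HLA class I molecule. The members near ATP6V1G2 and COX4I1 were also SPI1 peaks, with SPI1 folds of 7.40 and 6.54. The tenth, 6.98 kb upstream of TRIT1, had 92 fragments, the most of all members, but a fold of 9.89 over a local background of 8.402 fragments. Of these 10 summits, 7 were farther than 10 kb from any protein-coding start.

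That TRIT1 site belonged to a stretch of chromosome 1, from 39 to 41 Mb, in which 17 members and 53 GFI1 peaks lay. The local background of these 17 members had a median of 4.58 fragments, 9.46 times the lowest background of the list, and the other 914 members had a median of 0.6001. Their median fold was 5.15 with 28 fragments, against 7.41 with 12 fragments in the other members. Of the 17, 2 were SPI1 peaks and 8 held AATC. Without the stretch, 67 of 914 members were SPI1 peaks (7.33%), against 7.41% with it. The number of fragments and the local background rose together in this stretch, as the plot of fragments against background shows, and the part of the background in the number of peaks there was not tested.

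**Figure D1:**
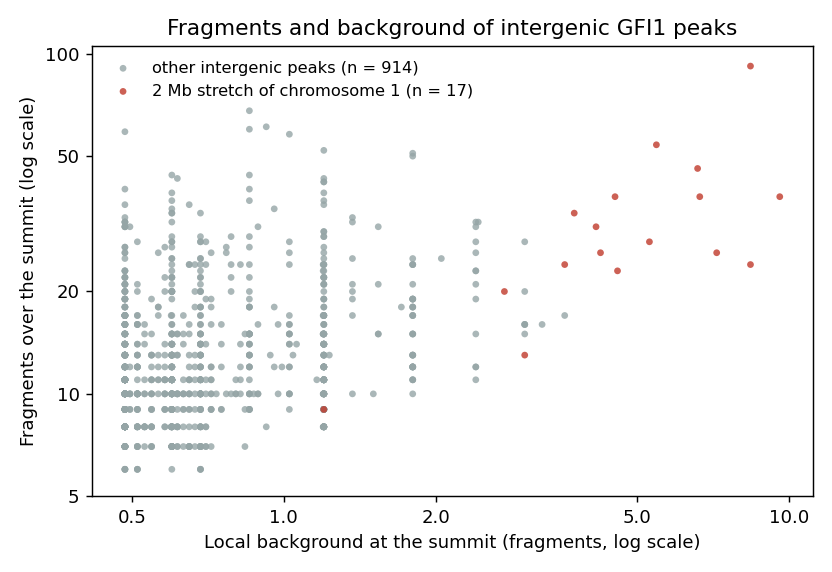
Fragments over the summit (vertical axis, log scale) against the local background in fragments (horizontal axis, log scale), both solved from the deposited fold and −log10 p, for the 931 intergenic GFI1 peaks of THP1 cells, each point a peak. The 17 red points from chromosome 1 have a median background of 4.58 fragments, and the 914 grey points one of 0.6001.

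Intergenic sequence held fewer GFI1 peaks per Mb than the rest of the genome. It made up 1149 Mb or 39.1% of the 2938 Mb of known sequence. It held 0.810 members per Mb, against 1.41 GFI1 peaks per Mb in the rest of the genome. The value of 1.41 pools the 1547 genic and 983 promoter peaks. The density in gene bodies alone was not computed, so a difference between intergenic sequence and gene bodies was not tested. Density was highest on chromosome 17 (2.11 members per Mb), followed by chromosomes 1 (1.72), 20 (1.70) and 19 (1.68), where chromosome 1 without the stretch from 39 to 41 Mb had 1.52. It was lowest among the chromosomes with members on chromosomes 4 (0.322) and 18 (0.348). Chromosome X had 83.5 Mb of intergenic sequence and 0 members among its 2 GFI1 peaks.

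The members lay at a median of 25.5 kb (95% interval 22.03 to 31.7) from the nearest protein-coding start, and the middle 50% lay between 8.99 and 76.1 kb. Of the 931 members, 323 (34.7%, 31.7 to 37.8) were over 50 kb away and 24 were over 500 kb away. Many members were near a gene of another type. With starts of all gene types, the median distance was 9.79 kb and 10.5% of members were over 50 kb from one. In 71 members (7.63%) such a start was within 1000 bp, most often that of a long non-coding RNA (43 members).

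The farthest members were 1553 kb upstream of SLC39A10, 1533 kb upstream of TPTE and 1085 kb upstream of ALCAM. Their folds were 5.95, 3.91 and 8.75. At the limits of the definition, the member nearest to a protein-coding start lay 1023 bp from MPO (fold 16.2), the next 1130 bp from ENO1 (4.54). The promoter peaks closest to that limit lay 992 bp from the start of PTPN1 (5.82) and 987 bp from that of MPV17L2 (5.00). The member nearest to a gene body of any type had its summit 1 bp outside it, and its closest protein-coding start was that of IL1R2 (9.50). The nearest genic summit lay 9 bp inside a gene body, and its closest protein-coding start was that of HMOX1 (13.9). The bodies need not be those of the genes named.

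The core AATC was frequent at the member summits. It was found in the 50 bp of 503 members (54.0%, 50.8 to 57.2), against 28.5% (26.5 to 30.6) of windows of the same size 2000 bp to either side. Over all GFI1 peaks of THP1 cells the share was 50.9%. The members exceeded promoter peaks by 9.27 percentage points (4.79 to 13.7), while the difference to genic peaks was 1.02 points (−3.03 to 5.06). The excess was local. The 10 bp nearest to the summit held 1.47 copies per 100 bp. The bins from 200 to 500 bp held between 0.655 and 0.870, with the lowest value from 490 to 500 bp. Of the members, 389 had 1 copy, 98 had 2 and 16 had 3 or more.

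**Figure D2:**
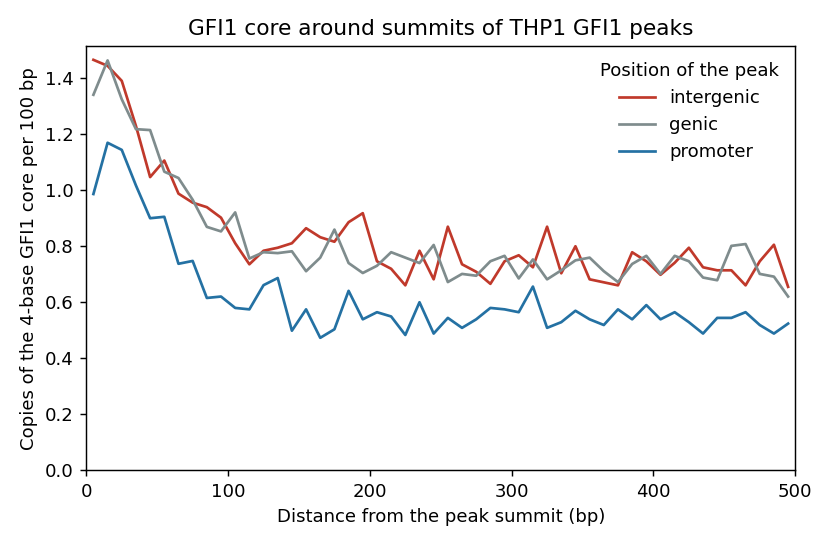
Copies of the 4-base GFI1 core per 100 bp on either strand (vertical axis) by distance from the summit in bp (horizontal axis, bins of 10 bp) for the 931 intergenic, 1547 genic and 983 promoter GFI1 peaks of THP1 cells. The line of intergenic peaks falls from 1.47 at the summit to 0.655 at 490 to 500 bp, its lowest bin, and that of promoter peaks from 0.987 to 0.524.

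The bases beside the core were uneven. In the 460 member summits whose first copy was complete with its neighbours, the base before AATC was A in 55.9% (51.3 to 60.3), against 33.5% in flanking copies. The base after it was A in 47.4% or T in 36.5%, and C in only 14.1% (11.2 to 17.6) against 35.5% in flanking copies. The fourth base after the core was G in 51.3%, against 34.6% in flanking copies. The longer word AATCA stood in 28.8% of member summits and 9.30% of flanks (26.8% of all GFI1 summits), and AATCT in 21.8% and 8.98% (18.9% of all). AATCC showed no such gain, with 9.77% at summits and 10.5% in flanks (9.51% of all). These longer words were chosen after the summits had been seen. The flanks held more repeated sequence. Their 24-base words had a median of at least 10 copies in the genome in 16.3%, against 8.81% of member summits. The part of repeats in the flank shares was not tested.

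The 6-base core AATCAC, part of the known GFI1 site, was present in 95 members (10.2%, 8.42 to 12.3) and in 2.47% of flanks. It was as frequent over all GFI1 peaks (10.1%), and the members differed from promoter peaks by 0.743 points (−1.93 to 3.44). Among all 2080 words of 6 bases, counted on both strands, 9 of the 10 with the largest gain at member summits contained AATC. The first was AAATCA, at 18.8% of summits and 4.09% of flanks. The word among the 10 without AATC was AGGAAG, which holds the ETS core GGAA, at 11.2% and 5.16%.

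Members with the core were stronger. The median −log10 p was 13.4 (12.54 to 14.1) in the 503 members with AATC and 10.9 (9.97 to 11.3) in the 428 without. Divided into 4 equal groups by −log10 p, from the strongest to the weakest, AATC was present in 68.1%, 58.4%, 48.5% and 41.2%. The strongest group exceeded the weakest by 26.9 points (17.9 to 35.2). The share with AATCAC was 15.1% in the strongest and 6.44% in the weakest group, a difference of 8.65 points (3.03 to 14.4).

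**Figure D3:**
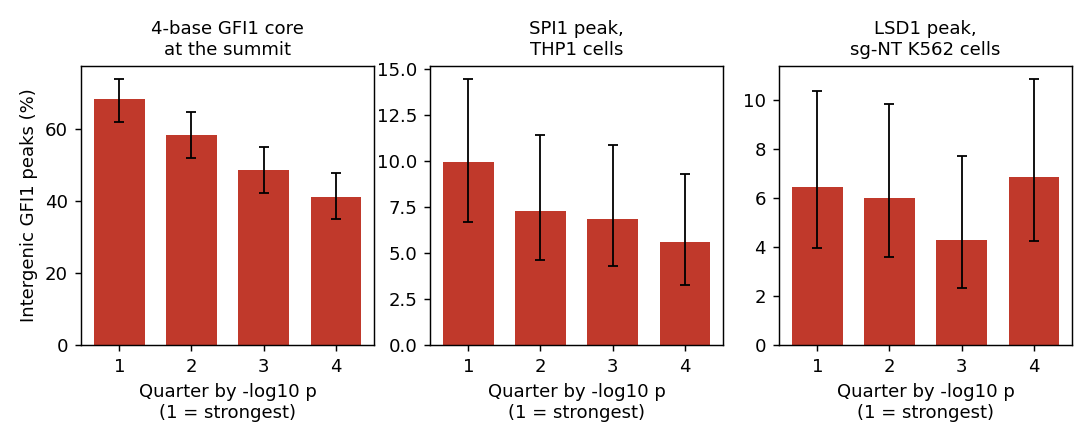
Share of intergenic GFI1 peaks (vertical axes, %) with the 4-base GFI1 core at the summit, with an SPI1 peak in THP1 cells and with an LSD1 peak in sg-NT K562 cells, by −log10 p in 4 equal groups (horizontal axes, 232 or 233 peaks each, error bars 95% Wilson intervals). The core falls from 68.1% to 41.2%, and the intervals of the other shares overlap between the groups.

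Cores of myeloid factors were also more frequent at member summits than beside them. The SPI1 core GAGGAA was found in 89 members (9.56%, 7.83 to 11.6; 8.61% of all GFI1 peaks) and in 4.25% of flanks (3.42 to 5.26). The longer SPI1 core GAGGAAGT, which contains it, was found in 2.04% and 0.376% (1.73% of all GFI1 peaks). TGTGGTT, the core of the RUNX factors, was found in 2.90% and 0.484% (2.86% of all), and the composite site of ETS and IRF factors in 2.36% and 0.699% (2.05% of all). The C/EBP core TTGCNNAA was found in 6.12% and 2.53% (5.26% of all), and the AP-1 core TGANTCA in 3.33% and 1.45% (2.92% of all). TGATTNAT, bound by HOX and MEIS factors, was found in 2.36% and 0.484% (2.17% of all), but it contains GATT.

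Other cores showed no gain at this number of peaks. GATAAG, bound by GATA factors, was found in 1.50% of member summits (0.898 to 2.51) and 1.40% of flanks (1.21% of all GFI1 peaks). The same held for CAACTG (MYB) at 3.01% and 2.04% (2.46% of all), CAGCTG (E-box) at 3.22% and 2.42% (3.12% of all), CCAAT (NF-Y) at 6.87% and 6.08% (5.49% of all) and the CTCF core at 0.107% and 0.108% (0.26% of all), whose intervals overlapped. The SP core GGGCGG was found in 1.83% of member summits and 1.72% of flanks (4.39% of all GFI1 peaks), against 11.2% of promoter summits. The members thus had 9.36 points less of it than promoter peaks (7.25 to 11.6). TGACGTCA (CRE) and the NRF1 core were found in 0 of 931 member windows. In 337 members (36.2%, 33.2 to 39.3) none of 7 cores was found, against 39.9% of all GFI1 peaks and 65.2% of flanks (63.0 to 67.3). The 7 were the 4-base GFI1 core, the shorter SPI1 core and the RUNX, AP-1, C/EBP, GATA and CTCF cores.

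**Figure D4:**
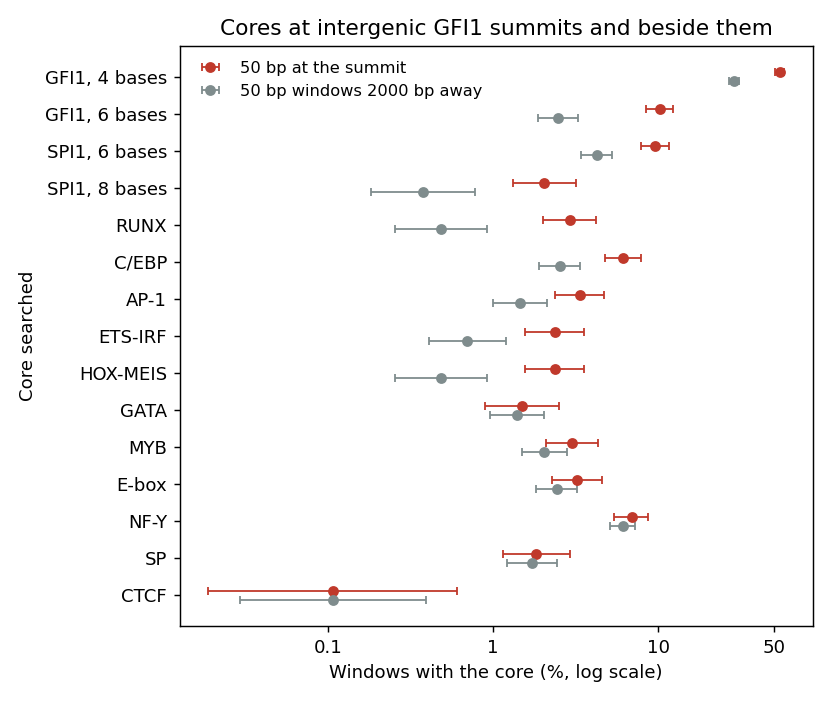
Share of windows with each core (horizontal axis, %, log scale) for the 931 intergenic GFI1 summits (red) and 1860 windows 2000 bp away (grey), with 95% Wilson intervals. The GFI1, SPI1, RUNX, C/EBP, AP-1, ETS-IRF and HOX-MEIS cores lie to the right of their flanks, while GATA, MYB, E-box, NF-Y, SP and CTCF overlap them.

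CpG islands were rare at members and at genic peaks. A CpG-rich window of 500 bp surrounded 59 members (6.34%, 4.94 to 8.09) and 6.79% of genic peaks (5.64 to 8.15), against 57.1% of promoter peaks and 20.9% of all GFI1 peaks. The median GC content in 200 bp was 46.5% in members and in genic peaks and 56.5% in promoter peaks. Most member summits were unique sequence. In 783 members (84.1%) the 24-base words had a median of 1 copy in the genome, and in 82 (8.81%, 7.15 to 10.8) they had at least 10 copies, against 16.3% (14.7 to 18.1) of flanks. A median of 1 copy was found in 84.2% of genic and 91.8% of promoter summits. At least 10 copies were found in 8.47% and 4.17%, so the members were close to genic peaks here.

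Few members were SPI1 peaks. Of the 931, 69 (7.41%, 5.90 to 9.27) shared at least 1 bp with an SPI1 peak of THP1 cells, against 5.58% of all GFI1 peaks. The members exceeded promoter peaks, at 2.54%, by 4.87 points (2.95 to 6.90). The difference to genic peaks was 1.012 points (−1.003 to 3.18). The summits of GFI1 and SPI1 were a median of 55 bp apart, and in 31 of the 69 they were within 50 bp. The share was 9.91% in the strongest of the 4 groups of members and 5.58% in the weakest, a difference of 4.33 points (−0.592 to 9.40).

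The shared sites were not equally strong in both libraries. The SPI1 fold ranged from 4.17 to 94.7 and was higher than the GFI1 fold in 41 of the 69. The largest SPI1 fold, 94.7, lay at the member 452 kb from AKR1E2, where the GFI1 fold was 6.74; this member was picked out after its values had been seen. The strongest shared members by GFI1 −log10 p were those near ATP6V1G2, COX4I1, TRIT1, FZD2, a WNT receptor (GFI1 fold 22.1), and ZFP36L1, an RNA-binding protein that destabilises mRNA (22.5, SPI1 fold 11.8). GAGGAAGT was found in 5 of the 69 shared members (7.25%, 3.13 to 15.9) and in 1.62% of the others, a difference of 5.62 points (1.37 to 14.3). Among the genic and promoter peaks, 5 of 124 with SPI1 (4.03%) and 1.50% of the others held it, so the gain was not particular to the members. The shorter core GAGGAA was found in 11 of the 69 (15.9%) and in 9.05% of the other members, a difference of 6.89 points (−0.224 to 17.4).

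The members met LSD1 sites of K562 cells less often than promoter peaks did. An LSD1 peak of sg-NT K562 cells overlapped 55 members (5.91%, 4.57 to 7.61), against 8.7% of all GFI1 peaks of THP1 cells and 14.6% of promoter peaks. The members were 8.74 points below promoter peaks (6.06 to 11.4). The difference to genic peaks was −0.686 points (−2.59 to 1.36). By distance from a protein-coding start, the share was 9.16% (5.32 to 15.3) at 1 to 5 kb, 5.26% at 5 to 10 kb, 7.85% at 10 to 50 kb, 4.35% at 50 to 100 kb and 1.86% (0.636 to 5.33) at 100 to 500 kb. It did not fall steadily, and the intervals of the first and last of these bins overlapped slightly. Cell line and antibody both differ in this comparison, so their parts cannot be told apart.

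**Figure D5:**
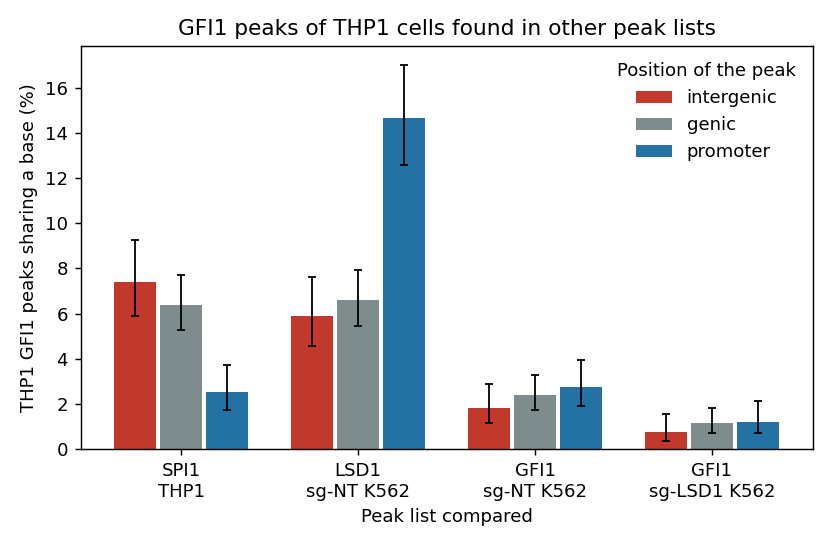
Share of intergenic, genic and promoter GFI1 peaks of THP1 cells (vertical axis, %) that share at least 1 bp with a peak of each other list (horizontal axis), with 95% Wilson intervals. Intergenic peaks reach 7.41% for SPI1, above the 2.54% of promoter peaks, and 5.91% for LSD1, below the 14.6% of promoter peaks.

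GFI1 peaks of K562 cells were rare at these sites. A GFI1 peak of sg-NT cells overlapped 17 members (1.83%, 1.14 to 2.90; 2.34% of all GFI1 peaks of THP1 cells). A GFI1 peak of sg-LSD1 cells overlapped 7 members (0.752%, 0.365 to 1.54; 1.07% of all). Of the 17, 15 were also LSD1 peaks in sg-NT cells and 1 was a GFI1 peak in sg-LSD1 cells. Of the 7, 5 were in no further list. The lists of K562 cells differ in length, so the counts of 17 and 7 do not compare the 2 guides. In all, 805 members (86.5%, 84.1 to 88.5) were in none of the other 4 lists, close to the 85.4% over all GFI1 peaks.

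A single member was a peak in all 3 lists of K562 cells. It lay 20.6 kb upstream of KCTD6, which encodes a BTB-domain protein. The fold was 24.3 for GFI1 in THP1 cells, 11.1 for LSD1 and 14.03 for GFI1 in sg-NT cells, and 6.11 for GFI1 in sg-LSD1 cells, and there was no SPI1 peak. The member 6.31 kb downstream of CEBPE, a C/EBP factor of neutrophil maturation, showed the opposite order, with a fold of 6.43 for GFI1 in THP1 cells, 38.0 for LSD1 and 24.1 for GFI1 in sg-NT cells. It was not a GFI1 peak in sg-LSD1 cells. Its summit held GATAAG and no AATC.

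The core GATAAG was more frequent at members shared with the lists of sg-NT K562 cells. It was found in 5 of the 55 members with LSD1 (9.09%, 3.95 to 19.6) and in 1.03% of the others, a difference of 8.06 points (2.84 to 18.6). Among the genic and promoter peaks of the same list, 7 of 246 with LSD1 (2.85%) and 0.919% of the others held it. At the 17 members with GFI1 in sg-NT cells the count was 3 (17.6%, 6.19 to 41.0), and these 3 were among the 5. In genic and promoter peaks, 4 of 64 with GFI1 in sg-NT cells (6.25%) held it, against 0.973% of the others. At the 55 members with LSD1, AATCAC stood in 10 (18.2%, against 9.70% of the others), a difference of 8.48 points (0.203 to 20.8). GAGGAA stood in 1 (1.82%, against 10.0% of the others), a difference of −8.23 points (−10.9 to −0.230). In genic and promoter peaks with LSD1, these shares were 11.0% (9.94% of the others) and 8.94% (8.19%). At the 17 members with GFI1 in sg-NT cells, AATCAC stood in 1 (5.88%, against 10.3% of the others) and GAGGAA in 0 (against 9.74%). Of the 7 members with GFI1 in sg-LSD1 cells, 6 held AATC, 4 held GAGGAA and 3 held GAGGAAGT, including those near HNMT and DHX40. In genic and promoter peaks, 23 of 30 such sites held AATC (76.7%), 4 held GAGGAA (13.3%) and 1 held GAGGAAGT. GATAAG was found in 0 of the 7 and in 0 of the 30. The counts at the members rest on 7 sites, and no test was made.

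Most members stood alone. Another GFI1 peak lay within 12500 bp of the summit in 129 members (13.9%, 11.8 to 16.2; 15.1% of all GFI1 peaks). Linked at this distance, 849 clusters had 1 member, 35 had 2 and 4 had 3. The 4 largest clusters lay near CBX8, a Polycomb protein, GFI1 itself, PREX1, an exchange factor of RAC proteins, and GTF2IRD2B.

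The cluster at GFI1 lay 18.2 to 22.1 kb downstream of its start, in a span of 3.86 kb. The folds of its members were 10.8, 6.53 and 5.00, and the −log10 p values were 20.1, 9.69 and 6.61. All 3 summits held AATC, and the summit of the strongest also held GAGGAAGT. None of them was a peak in the other lists. At CBX8 the 3 members had folds of 8.08, 8.08 and 6.06. At PREX1 the folds were 9.09, 8.67 and 6.65, and the words at the strongest of these summits had a median of 112619 copies in the genome.

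Genes of myeloid transcription were often the nearest gene. Across all 20038 protein-coding genes, 799 (3.99%) were the nearest gene of at least 1 member. Of 40 transcription factors of myeloid and stem cells, 12 were (30%, 18.1 to 45.4), with 21 members. These were 2.26% of the members, and 45 of all 3461 GFI1 peaks (1.30%) had such a gene nearest. The intergenic sequence nearest to these 40 genes spanned 5.58 Mb. Its density was 3.77 members per Mb (Poisson interval 2.33 to 5.76), against 0.810 over all genes. The lists were chosen with results of these data known, and no test was made.

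The strongest of these 21 members were 891 kb upstream of ZEB2, a zinc-finger repressor, with a fold of 17.3, and 122 kb upstream of KLF4, a factor of monocyte differentiation, with a fold of 13.3. KLF4 had 4 members, 26.6 to 260 kb upstream, with folds of 6.61 to 13.3, and each summit held AATC. MYC had a member with a fold of 9.28 at 467 kb. FOS, a part of AP-1, had 3 members with folds of 4.29 to 10.8, and HHEX had 2, of which 1 was an LSD1 peak in K562 cells with a fold of 9.56. A member 157 kb downstream of CEBPB had a fold of 5.00 and an SPI1 fold of 9.81.

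Of 31 genes for products of monocytes and neutrophils, 4 were the nearest gene of a member, with 7 members in 0.823 Mb of intergenic sequence (8.50 per Mb, 3.42 to 17.5). The 7 were 0.752% of the members, against 16 or 0.462% of all GFI1 peaks. They include the members near NCF1, whose summit words recur elsewhere in the genome. The member 21.0 kb downstream of CD14, the co-receptor for lipopolysaccharide, had a fold of 21.4 and an SPI1 fold of 10.6. The member 10.1 kb upstream of LYZ, the gene of lysozyme, had a fold of 17.1 and an SPI1 fold of 6.94. MPO, the gene of myeloperoxidase, had members 1.02 and 4.03 kb upstream, with folds of 16.2 and 7.90, and neither was an SPI1 peak.

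NCF1, a subunit of the phagocyte oxidase, had 3 members with folds of 15.0, 7.11 and 5.39. The words at these summits had a median of 2 or 3 copies in the genome, and members near GTF2IRD2B lay at similar distances from its pseudogene NCF1C, 5.31 and 7.83 kb against 5.34 and 7.93 kb from NCF1. Reads from these copies cannot be told apart with the peak lists.

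Of 21 cytokines, chemokines and signalling inhibitors, 6 were the nearest gene of a member (28.6%, 13.8 to 49.96), with 7 members. These were 0.752% of the members, against 15 or 0.433% of all GFI1 peaks. The 6 genes were IL1B, PIM1, TNFAIP3, SPRY2, SOCS2 and NFKBIA, with folds of 6.06 to 7.27. Of 22 homeobox genes of leukemia and their partners, SOX4 and HOXA7 had 1 member each, both with a fold of 4.09. None of the 12 genes of the LSD1-CoREST complex was the nearest gene of a member (0%, upper bound 24.2%). Of all GFI1 peaks, 11 had a gene of the homeobox list nearest, and 2 had a gene of the complex. Over all genes, IRF2BP2, a transcriptional corepressor, had the most members, 6, with folds of 4.002 to 8.93 between 3.13 and 168 kb from its start. It was named after the counts had been seen.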

How the data were processed

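Per the labels and the paper's methods, reads were trimmed with Trim Galore 0.6.1, aligned to GRCh38 with Bowtie2 2.5.4, freed of duplicates with Picard 3.1.0, and peaks were called for each library alone with MACS2 2.2.9.1 at p 1e-05, followed by removal of blacklisted regions. Use of input as control is not given in the sources used here. The fold deposited by the authors is a ratio of pileup to local background. The p- and q-values deposited by the authors are on a −log10 scale. The deposited score was not used.

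Fragments and background were solved from (fragments + 1)/(background + 1) and a Poisson p. Read totals were not used here. Peaks of 2 lists were shared from 1 bp, a count also checked in bedtools 2.31.1. Cores were searched on both strands of hg38 in 50 bp windows. Shares carry 95% Wilson, and differences Newcombe, intervals. Named members were the 10 strongest, the 5 strongest shared with each list, the 3 farthest, the largest clusters, up to 4 per gene list and those at the limits. Members near AKR1E2, CEBPE, HNMT, IRF2BP2 and RHOU were chosen after their values were seen. Members, lists and cores were chosen with earlier results of these data known. Alternatives were stricter peaks, other distances, other gene types, other overlaps, windows and cores. Scripts were tested on simulated data. The software was numpy 2.4.6, Python 3.11.15, pysam 0.24.0, scipy 1.17.1, matplotlib 3.10.9 and samtools 1.23.1. Input and murine H3K4me1 libraries were not analysed here.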

Additional observations from a re-analysis of the deposited data

How the results depend on the processing

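Of 66 alternatives over 11 results, 59 stayed within the interval of the main value, or within 1.5 times the main count. Only the differences between intergenic and promoter peaks had a direction, and none of their alternatives changed it. The count of 931 intergenic peaks ranged from 769 (−log10 p of at least 8) to 1326 (only bodies of protein-coding genes left out). The share over 50 kb from a start moved from 34.7% to 10.5% with starts of any gene type. The share near another GFI1 peak moved from 13.9% to 7.52% at 5 kb and 34.8% at 50 kb. The share with AATCAC, 10.2%, moved to 17.1% in 100 bp and 27.6% in 200 bp windows, to 54.0% for AATC and to 1.61% for TAAATCAC. In flanks of 200 bp AATCAC reached 9.52%. No paired analysis was possible because each condition had 1 library. The share of summits in repeats was not run, since repeats are not marked in the reference used here, and copies of 24-base words were counted in its place. That count, the starts of protein-coding transcript types (934 peaks) and the analysis without the stretch on chromosome 1 were chosen after seeing the data. With a median of 12 fragments over a summit, sites of weaker enrichment were not detectable, and absence from a list does not show absence of binding.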

Other observations

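Of the 5 members whose nearest gene was RHOU, 3 lay beside 5S ribosomal RNA genes on chromosome 1, 488 bp from the start of RNA5S6, 580 bp from that of RNA5S13 and 1061 bp from that of RNA5S12. Their folds were 4.25, 4.25 and 3.999 over a background of 3.00 fragments, and the 24-base words at their summits had a median of 8, 19 and 17 copies in the genome. The last of them was also an SPI1 peak, with a fold of 11.5. The member 1533 kb from TPTE on chromosome 21 had a background of 3.60 fragments and a median of 5 copies, and it was also a GFI1 peak of sg-NT K562 cells with a fold of 3.81. Over the list, 38 members (4.08%) and 3.41% of all GFI1 peaks had a background of at least 4 times the lowest, and 24 of the 38 lay on chromosome 1.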
